A study of Mus musculus with 32 samples.

Results

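The 54 genes described here code for the replication-dependent core histones H2A, H2B, H3 and H4 and for the linker histones H1. They were chosen by name alone. A gene was taken when its platform symbol began with Hist1h, Hist2h, Hist3h or Hist4h, or when its current symbol began with H1f, H2ac, H2bc, H3c or H4c and a digit. Of 16593 genes on the array, 54 met the rule through 60 of 25697 probes. Where a gene had several probes, the one with the highest mean signal was used. The set held 9 H1, 14 H2A, 12 H2B, 9 H3 and 10 H4 genes. RefSeq (GRCm38.p6) places 44 of them on chromosome 13, 7 on chromosome 3, 2 on chromosome 6 and 1 on chromosome 15. Besides histones of dividing cells, the name rule took in H1f7 and H1f6, linker histones of male germ cells, H1f8, the oocyte linker histone, H1f10, a linker histone made outside S phase, and H2ac1 and H2bc1, known from spermatocytes.

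Male NIH Swiss mice aged 7 weeks received CBL0137 once by the intravenous route at 30, 60 or 90 mg/kg, or its 5% dextrose vehicle, and testis, spleen, liver and lung were collected 24 h later. CBL0137 is a DNA-binding compound of the curaxin group that traps the histone chaperone FACT on chromatin. The study compared organs that contain FACT with organs that lack it. Organ and dose together made 16 groups with 2 arrays each, 32 in all, and the groups shared strain, sex, age and sampling time. Separate animals behind the 2 arrays of a group are not stated in the labels, and p-values therefore reflect only array-to-array spread, which may be technical.

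Each nucleosome holds pairs of H2A, H2B, H3 and H4 around which DNA is wrapped, and H1 binds where the DNA enters and leaves. Replication-dependent histone genes lie in clusters, are switched on together in S phase, and give messages that end in a stem-loop in place of a poly(A) tail. Many H2A genes lie head to head with an H2B gene and share the DNA between their starts. The labelled RNA was made with an amplification kit that primes on poly(A), so the signals here describe the polyadenylated share of histone messages best. Histone genes of a class are near-identical in their coding parts, and probe sequences were not used here, so a probe may also have read RNA of sister genes, and members of a class are not independent measurements.

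The signal is the intensity deposited by the authors, after background subtraction and quantile normalization over the 32 arrays. The number of arrays limits the precision. A probe counted as above background over 8.05 or 8.29 units, depending on the array. By that rule 27 of the 54 genes were above background on all 32 arrays, while H1f4 and H1f8 were on none, and each array had 33 to 44 of them. Organ markers were brightest where the labels place them: on vehicle arrays the summed signal of 8 hepatocyte markers was 60559 to 61194 in liver, that of 8 lung epithelial markers 93470.2 to 99287 in lung, that of 7 B cell markers 14291 to 16661 in spleen, and that of 13 spermatid markers 153016 to 157755 in testis. The spermatid sum was also 17584 to 34026 on the vehicle spleen arrays and 585 to 8662 on the treated ones. A testis share was taken as the median ratio to the vehicle testis signal over 58 non-histone probes with over 1000 units in testis and none above background in liver. It was 2.74% and 5.63% on the vehicle spleen arrays and 0.0189% to 1.17% on the treated spleen arrays. On the lung arrays it was 0.988% and 0.691% with vehicle and at most 0.129% after treatment. Those values stand beside the results they touch.

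DNA between head-to-head starts is shown for 3 of the 6 pairs found among the 54 genes, since the H2A and H2B genes of a pair are set side by side in the spleen results. The strand is plus, 5′ to 3′, on GRCm38.p6, from RefSeq. Capitals mark CCAAT, the octamer ATTTGCAT and TATAAA, on either strand. The region between H2ac12 and H2bc12 is chr13:22035644-22035820, that between H2bc7 and H2ac7 is chr13:23574208-23574380, and that between H2ac8 and H2bc8 is chr13:23571221-23571399.
H2ac12 and H2bc12: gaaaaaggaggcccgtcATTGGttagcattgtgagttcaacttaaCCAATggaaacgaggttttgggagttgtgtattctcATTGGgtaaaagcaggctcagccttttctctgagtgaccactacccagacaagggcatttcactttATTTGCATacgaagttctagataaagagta
H2bc7 and H2ac7: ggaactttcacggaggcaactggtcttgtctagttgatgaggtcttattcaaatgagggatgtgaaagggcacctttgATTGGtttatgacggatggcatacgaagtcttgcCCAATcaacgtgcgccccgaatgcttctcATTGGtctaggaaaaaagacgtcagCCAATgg
H2ac8 and H2bc8: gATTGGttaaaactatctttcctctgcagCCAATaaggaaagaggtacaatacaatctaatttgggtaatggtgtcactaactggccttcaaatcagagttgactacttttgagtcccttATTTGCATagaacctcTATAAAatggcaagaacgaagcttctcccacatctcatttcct
CCAAT, the letters bound by the factor NF-Y, occurred 3, 4 and 2 times in these regions, and no marked motif overlapped another. Of 27025 RefSeq promoters cut to the same lengths, 28.0%, 27.6% and 28.1% held CCAAT. The octamer, which the POU factors bind, was present between H2ac12 and H2bc12 and between H2ac8 and H2bc8, against 1.21% of promoters at either length. TATAAA was present between H2ac8 and H2bc8, against 9.42% of promoters. CCAAT occurred 5 times between H2ac11 and H2bc11 and 3 times between H2ac15 and H2bc15, where 34.3% and 26.7% of promoters held it. A match of letters is a description of the DNA and not evidence of binding.

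Untreated spleen had much more signal from core H2A genes than liver or lung, and less from H2B genes. On vehicle arrays 25 of 45 tested histone genes were higher in spleen than the mean of liver and lung and 9 were lower (limma on log2(signal + 16), Benjamini-Hochberg adjusted p under 0.05), against 29.3% and 25.8% of all 12362 genes tested. By class, 9 of 13 H2A, 6 of 7 H3, 8 of 10 H4 and 2 of 4 H1 genes were higher, while 8 of 11 H2B genes were lower and none was higher. The largest H1 difference, 2.40, was that of H1f7, a linker histone of male germ cells, at 74.4 and 158 on the spleen arrays. The testis share of those arrays was 2.74% and 5.63%. The median log2 difference was 4.23 for H2A and -1.08 for H2B, beside 0.02 for all genes. The signal of H2ac22, a core H2A gene, was 7805 and 4926 on the vehicle spleen arrays, 136 and 118 in liver, 306 and 165 in lung and 115 and 214 in testis. The 2 spleen arrays stood far above the 6 others, with a log2 difference from liver and lung of 5.07 ± 0.32 (SE, adjusted p 7.41e-06). H2ac11 differed by 5.08 ± 0.37, H2ac12 by 4.97 ± 0.45, H2ac15 by 4.97 ± 0.39, H2ac10 by 4.85 ± 0.37 and H2ac7 by 4.84 ± 0.39. H2ac18, of the chromosome 3 cluster, went the other way, with 88.4 and 103 in spleen, 393 and 635 in liver, 188.5 and 150.0 in lung and 710.4 and 952 in testis, and a log2 difference of -1.47 ± 0.23 (adjusted p 0.000846).

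The H2B partners of those bright H2A genes were lower in spleen. H2bc7 gave 930.5 and 576 on the vehicle spleen arrays, 2044 and 2474 in liver and 936 and 1057 in lung. Its spleen and lung arrays lay close together and its liver arrays were higher, giving a log2 difference of -1.02 ± 0.26 (adjusted p 0.0103). H2bc4, an H2B gene, had the largest such difference among the H2B genes, -1.70 ± 0.14, and H2bc11, H2bc12 and H2bc15 had -1.08, -1.19 and -1.21. H4c3 was above background on both vehicle spleen arrays and on none in liver or lung, and was at least 2.95-fold higher in spleen. The lower bound for H3c3 by the same reckoning was at least 1.41-fold, and H2bc6, above background in lung only, was at least 1.12-fold lower in spleen. H3c3 entered this test through its spleen arrays alone and H2bc6 through its lung arrays alone, so these bounds are no support for a difference. The class counts above include both genes.

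**Figure D1:**
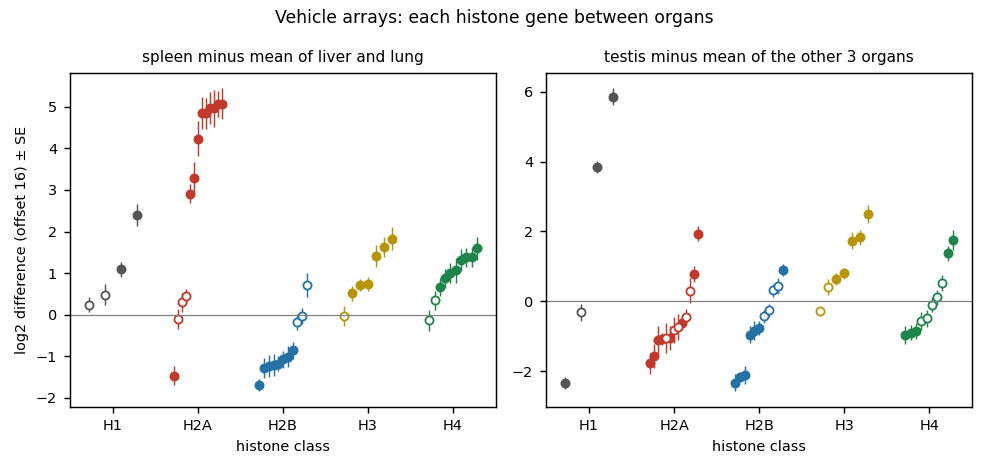
Log2 difference (offset 16) of each tested histone gene between vehicle organs, by class, with its SE; filled points passed the adjusted test and open points did not. In the left panel 11 of 13 H2A genes lie above 0, 9 of them filled, and 10 of 11 H2B genes below it, 8 of them filled; in the right panel H1f7 at 5.86 and H1f10 at 3.85 are the 2 highest points.

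Vehicle testis had more signal from 2 linker histone genes, H1f7 and H1f10, and less from H1f2. Against the mean of the other 3 vehicle organs 12 of 45 tested genes were higher and 16 lower, against 30.7% and 42.1% of all genes. The 16 include H2ac4, H2ac8, H2bc3, H2bc6 and H4c14, which were above background on neither vehicle testis array. Those genes entered the test through the other organs alone, so their calls are no support for a difference. H1f7, the spermatid linker histone, gave 2560 and 2207 in testis, 74.4 and 158 in spleen, 9.1 and 3.9 in liver and 9.5 and 8.9 in lung. Its log2 difference over the 3 organs was 5.86 ± 0.24 (limma adjusted p 3.59e-07). The testis share of the vehicle spleen arrays was 2.74% and 5.63%. The 2 testis arrays were apart from all others. H1f10 gave 503 and 412 in testis and 4.7 to 27.8 elsewhere, a difference of 3.85 ± 0.16 (adjusted p 3.61e-07). H3 genes followed, with 5 of 7 higher and none lower, led by H3c1 at 2.51 ± 0.26 and H3c6 at 1.83 ± 0.23. H1f2, a linker histone of somatic cells, gave 258 and 342 in testis and was lower by -2.34 ± 0.18. Among H2A genes H2ac18 was 1.93 ± 0.22 higher, and H2bc4, H2bc9 and H2bc15 were lower by -2.16, -2.11 and -2.33. H1f6 was not above background on either vehicle testis array, H1f1, H1f3, H1f4 and H1f8 gave at most 9.4 on any testis array, and H2ac1 gave 17.8 and 17.2 there.

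In the spleen after treatment, core H2A genes fell at the 2 higher doses. At 60 mg/kg 6 of 48 tested histone genes fell and none rose, against 1.15% and 0.753% of all 11023 genes tested, and all 6 were H2A genes. At 90 mg/kg the same 6 fell and H2ac8 rose, against 2.19% and 2.1% of all genes. The comparisons at 60 and 90 mg/kg share the vehicle arrays. H2ac12 gave 8474 and 5822 on the vehicle arrays, 6969.7 and 7633 at 30 mg/kg, 2242 and 1644 at 60 mg/kg and 2441 and 2305 at 90 mg/kg. The arrays at 60 and 90 mg/kg did not overlap those with vehicle or 30 mg/kg. Its log2 change was -1.86 ± 0.24 (SE, n = 2 arrays a group, limma adjusted p 0.0195) at 60 mg/kg and -1.56 ± 0.24 (adjusted p 0.0265) at 90 mg/kg.

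The other 5 core H2A genes had the same shape. H2ac22 gave 7805 and 4926 with vehicle, 6360.1 and 6066 at 30 mg/kg, 1459 and 1431 at 60 mg/kg and 1987 and 2217 at 90 mg/kg. H2ac7 gave 8766.5 and 7076 with vehicle, 8172 and 8109 at 30 mg/kg, 2894 and 2209 at 60 mg/kg and 3494 and 3073 at 90 mg/kg. In each gene both arrays at 30 mg/kg lay within or beside the vehicle arrays and all 4 at the higher doses lay below them. H2ac22 changed by -2.09 ± 0.24 and -1.56 ± 0.24 at 60 and 90 mg/kg (limma adjusted p 0.0158 and 0.0265), and H2ac7 by -1.63 ± 0.21 and -1.26 ± 0.21 (adjusted p 0.0195 and 0.0325). H2ac10 went from 10468 and 8905.5 to 3219.8 on each 60 mg/kg array and 3727 and 4505 at 90 mg/kg, and H2ac15 from 8433 and 6610.1 to 2355 and 1716, then 2929 and 2278. H2ac11, the dimmest of the 6 and the most variable, gave 1684 and 815 with vehicle and 953 and 1723 at 30 mg/kg, then 282.5 and 170.1, and 236 and 294. The log2 changes at 90 mg/kg were -1.23 ± 0.18 for H2ac10, -1.53 ± 0.23 for H2ac15 and -2.09 ± 0.42 for H2ac11. Over the 32 arrays the log2 signals of the 6 genes correlated pairwise at r = 0.96 to 0.997, a description of probes that may share RNA, on arrays that share organs.

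H2ac20, H2ac21 and H2ac24 had lower values on every array at 60 and 90 mg/kg than on either vehicle array without passing the adjusted test. H2ac24 gave 24070.3 and 15201 with vehicle, the first of which was the top value of the quantile scale, and 8211 to 9407 at the 2 higher doses. Its log2 changes were -1.15 and -1.03 (adjusted p 0.0529 and 0.0531), those of H2ac20 -0.94 and -0.83 (adjusted p 0.0584 and 0.0639) and those of H2ac21 -1.83 and -1.60 (adjusted p 0.0747 and 0.0904). H2ac8, whose signal was low throughout, rose: it gave 21.0 and 30.7 with vehicle, 41.6 and 32.9 at 30 mg/kg, 44.2 and 53.5 at 60 mg/kg and 70.0 and 74.2 at 90 mg/kg, each dose group above the vehicle arrays. Its change at 90 mg/kg was 1.08 ± 0.20 (adjusted p 0.0361). H2ac18 had 0.84 ± 0.22 at 90 mg/kg (adjusted p 0.0623).

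**Figure D2:**
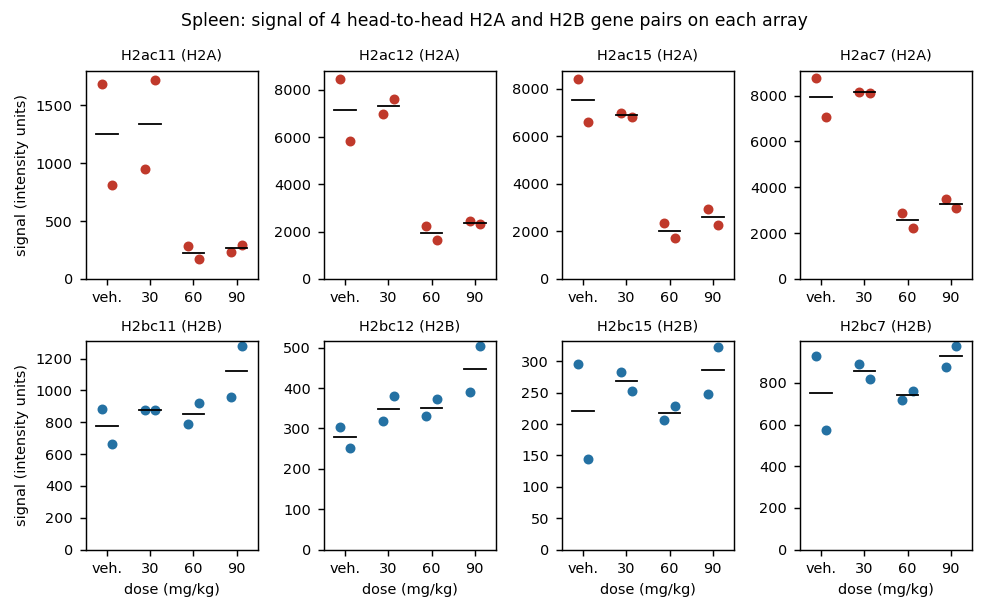
Signal (intensity units, axes from 0) in the spleen by dose for 4 H2A genes and, under each, its head-to-head H2B partner; points are arrays and lines are means of 2. The H2A genes drop at 60 and 90 mg/kg, to 2242 and 1644 and then 2441 and 2305 for H2ac12, while the H2B partners do not.

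The H2B partners across the shared DNA did not fall. H2bc12 gave 304 and 251 with vehicle, 318 and 380.4 at 30 mg/kg, 329.9 and 373 at 60 mg/kg and 389.5 and 503 at 90 mg/kg, all treated arrays above the vehicle arrays. Its log2 change at 90 mg/kg was 0.65 ± 0.21 (adjusted p 0.103) where that of H2ac12 was -1.56. The pair H2ac11 and H2bc11 had -2.09 and 0.52, H2ac15 and H2bc15 -1.53 and 0.42, and H2ac7 and H2bc7 -1.26 and 0.33. In the pair of H2ac8 and H2bc8, H2ac8 rose by 1.08, while H2bc8 had -0.02 and hovered at background. H2bc4 gave 545 and 590.5 with vehicle and 908 and 1372.5 at 90 mg/kg, with a change of 0.96 ± 0.27 (adjusted p 0.0785). No difference between the responses of partners was tested.

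By class, the median log2 change in the spleen at 90 mg/kg was -1.13 for 14 H2A genes, 0.44 for 11 H2B, -0.07 for 9 H3, 0.31 for 10 H4 and -0.25 for 4 H1 genes, beside 0.08 for all genes. Over the other settings the H2A median stayed between -1.35 and -0.74 and the H2B median between 0.24 and 0.72, while the signs of H3 (-0.56 to 0.04), H4 (-0.23 to 0.68) and H1 (-0.50 to 0.33) turned. None of the H2B, H3, H4 or H1 genes passed the limma test at 60 or 90 mg/kg. At an unadjusted p under 0.05, 0 H2B genes were higher and 0 lower at 60 mg/kg, 3 H3 and H4 genes were lower at that dose, and 5 H2B genes were higher at 90 mg/kg. Over all genes 10.4% were higher and 11% lower at 60 mg/kg, and 13.6% and 11.4% at 90 mg/kg. At the top dose 1 H3 and 1 H1 gene were lower, and in H4 1 was higher and 2 lower, the latter being H4c14 at -1.21 ± 0.28 (adjusted p 0.0519) and H4c2 at -0.80 ± 0.22. H4c2 gave -1.1 and 0.3 at 90 mg/kg, not above background, and entered the test through its arrays at the other doses and with vehicle. Its value is thus a difference from background and no support for a change. In H4c14 the signal was 57.8 and 33.5 with vehicle, 57.6 and 90.6 at 30 mg/kg, 25.8 and 15.2 at 60 mg/kg and 9.8 and 10.4 at 90 mg/kg. The arrays at 60 and 90 mg/kg lay below all those with vehicle or 30 mg/kg. H1f2 gave 2755 and 2483 with vehicle and 2729.6 and 5783 at 90 mg/kg, so its 2 arrays at that dose disagreed, and its change was 0.60 ± 0.35 (adjusted p 0.34). H1f5, an S phase linker histone, had -0.41 ± 0.27 (adjusted p 0.405). H1f10 had -0.09 by its brighter probe and -0.98 by its second probe. The second probe of H2bc4 gave 0.09.

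Across the doses as a trend, 5 spleen members fell and 3 rose per step of 30 mg/kg, against 1.69% and 3.52% of all genes. At an unadjusted p under 0.05 the members numbered 13 lower and 8 higher, against 8.78% and 15.3%. H2ac11 had a slope of -0.87 ± 0.21, H2ac12 -0.66 ± 0.15, H2ac15 -0.64 ± 0.15 and H2ac10 -0.52 ± 0.12, and H3c3 -0.29 ± 0.06. H2ac8 had 0.35 ± 0.06, H2ac18 0.30 ± 0.07 and H2bc4 0.32 ± 0.08. H3c3 was above background by little, at 11.1 and 11.7 with vehicle, and on none of the 4 arrays at 60 and 90 mg/kg. It entered the test through its vehicle and 30 mg/kg arrays alone, so its slope is no support for a change. The straight line describes the H2A genes poorly, since their arrays at 30 mg/kg matched vehicle and those at 60 mg/kg were lowest for 6 of 6 genes by group mean. With the spleen arrays at 30 mg/kg as the base in place of vehicle, a comparison chosen after seeing the data, 4 members fell at 60 mg/kg, against 0.0544% of all genes. They were H2ac10 at -1.50 ± 0.18, H2ac12 at -1.92 ± 0.24, H2ac22 at -2.09 ± 0.24 and H2ac7 at -1.68 ± 0.21 (limma adjusted p 0.0478, 0.0478, 0.0356 and 0.0478), and over all genes 6 fell. At 90 mg/kg on that base 0 members passed, with 17 lower and 3 higher at an unadjusted p under 0.05, against 5.62% and 5.92% of all genes.

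The spleen calls rested on few arrays. Without vehicle replicate 1 the count fell from 6 to 1 at 60 mg/kg and from 7 to 0 at 90 mg/kg, and it was 0 at 60 mg/kg without either array of that dose. It was 0 at 90 mg/kg without 90 mg/kg replicate 2 and 1 without replicate 1, and the slope count fell from 8 to 0 without vehicle replicate 1 or 90 mg/kg replicate 2. It was also 0 at both doses when genes below background were kept in the test. None of these called values changed sign under the settings tried.

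Other gene lists moved in the same spleens. Of 31 DNA replication and S phase genes on the array 29 were tested, and 3 fell at 60 mg/kg and 11 at 90 mg/kg, with none rising and medians of -1.33 and -1.42. Their summed signal was 14692 to 27744 with vehicle, 13121 to 18962.5 at 30 mg/kg, 8176 to 8338 at 60 mg/kg and 7344 to 7939 at 90 mg/kg, with Prim1 and Pola1 not above background in these groups and Ccna2 not at 60 and 90 mg/kg. Cdc45, a helicase subunit, had -1.48 ± 0.24 at 90 mg/kg, Mcm5 -1.62 ± 0.28 and Cdc6, which loads the helicase, -2.72 ± 0.52 (limma adjusted p 0.0325, 0.0347 and 0.0398). Of 13 erythroid markers 12 were tested and 5 fell at each of these doses, with the smallest p at 90 mg/kg in Klf1, the erythroid transcription factor, at -4.12 ± 0.59 and Tfrc, the transferrin receptor, at -2.89 ± 0.46. The erythroid sum was 28804 to 53637 with vehicle, 31206.5 to 40385 at 30 mg/kg, 7677 to 12493 at 60 mg/kg and 7526 to 20956 at 90 mg/kg, with Epb42 not above background. Of 8 macrophage markers 1 rose at 60 mg/kg and 5 at 90 mg/kg, and their sum was 13038 to 15037 with vehicle and 21521.5 to 23746 at 90 mg/kg. Of 7 B cell markers 1 fell at 90 mg/kg, where their sum was 13412 to 14337, and 0 changed at 60 mg/kg. Beside these list counts, 1.15% of all spleen genes fell and 0.753% rose at 60 mg/kg by the adjusted limma test. The shares were 2.19% and 2.1% at 90 mg/kg. At 90 mg/kg 3 of 13 spermatid markers fell, and of 6 tested spermatocyte markers 2 fell at each dose. All 13 spermatid markers were lower at both doses, with medians of -2.53 and -2.68, and 12 had an unadjusted p under 0.05 at each. Of all genes 11% and 11.4% were lower at that p. At 30 mg/kg 10 spermatid markers fell, with a median of -3.50, against 2.99% of all genes. By limma 0 hepatocyte and 0 lung epithelial markers changed in the spleen, with 2 and 1 higher at 60 mg/kg and 1 and 0 at 90 mg/kg at an unadjusted p under 0.05. Of all genes 10.4% and 13.6% were higher by that measure at these doses. In liver, lung and testis no gene of any list passed at 60 or 90 mg/kg. In whole-organ RNA, fewer cells of a type and less RNA per cell cannot be told apart, and the part of these lists in the H2A result was not tested.

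Genes for histone message processing and replication-independent histones gave 1 call in the spleen. Of 12 genes for histone message processing 10 were tested in the spleen, and 0 passed at 60 or 90 mg/kg by limma, with 1 higher and 1 lower at an unadjusted p under 0.05 at each dose. By that measure 10.4% of all genes were higher and 11% lower at 60 mg/kg, and 13.6% and 11.4% at 90 mg/kg. Slbp, the stem-loop binding protein, was not above background in the spleen. Of 7 replication-independent histone variants 0 passed at these doses by limma, with 2 lower at each dose and 1 higher at 90 mg/kg at an unadjusted p under 0.05. For slope 1 of the 7 fell, against 1.69% of all genes. That gene was Cenpa, the centromeric H3, with -0.57 ± 0.13 per 30 mg/kg (limma adjusted p 0.0444).

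H1f7 was the member called in the spleen at 30 mg/kg, where 1 of 48 fell, against 2.99% of all genes, and 0 rose, against 0.154%. At an unadjusted p under 0.05, 2 members were higher and 1 lower, against 5.32% and 7.44%. Its signal was 74.4 and 158 with vehicle, 2.9 and 16.4 at 30 mg/kg, 29.4 and 10.6 at 60 mg/kg and 20.6 and 23.0 at 90 mg/kg. Both vehicle arrays were above all treated arrays. The change was -2.34 ± 0.40 at 30 mg/kg (limma adjusted p 0.0363), -1.85 at 60 mg/kg and -1.73 at 90 mg/kg (adjusted p 0.054 and 0.0522). The testis share of these arrays moved the same way, and after it was subtracted the change at 30 mg/kg was -0.71 and was not called. The call was also lost without vehicle replicate 2 or without either 30 mg/kg array. The same subtraction left H2ac12 at -1.86 and -1.56 at 60 and 90 mg/kg, still called, and H2ac12 gave 190.4 and 549 on the vehicle testis arrays, far under its spleen signal.

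**Figure D3:**
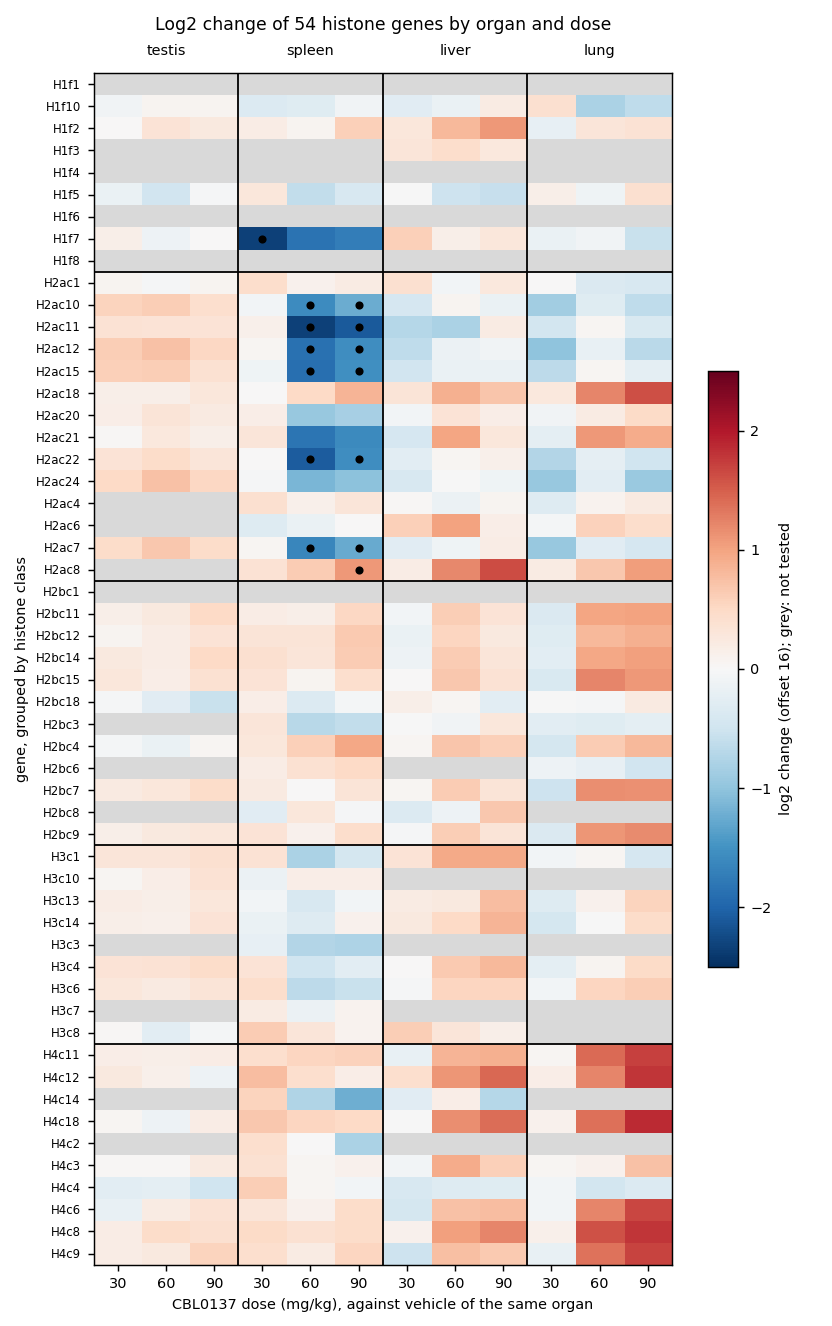
Log2 change (offset 16) of all 54 histone genes against the vehicle arrays of the same organ, by organ and dose, with classes separated by lines; black dots mark changes that passed the adjusted test and grey marks genes not tested. Dots appear in the spleen only: H1f7 at 30 mg/kg, 6 H2A genes at 60 mg/kg and the same 6 with H2ac8 at 90 mg/kg.

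In the lung 1 H4 gene and 1 H2A gene rose with dose, and no H2B, H3 or H1 gene passed. No member passed at a single dose (limma), as no gene of 11293 did. At an unadjusted p under 0.05, 17 of 41 members were higher and 1 lower at 60 mg/kg, against 3.19% and 5.77% of all genes, and 17 were higher and 0 lower at 90 mg/kg, against 4.52% and 7%. At 30 mg/kg 0 were higher and 2 lower, against 2.06% and 3.87%. H4c12, a core H4 gene, gave 24.6 and 19.7 with vehicle, 25.3 and 27.9 at 30 mg/kg, 63.1 and 83.3 at 60 mg/kg and 109 and 124 at 90 mg/kg. All 4 arrays at the higher doses were above the 4 others, and each 90 mg/kg array was above each 60 mg/kg array. It rose by 0.64 ± 0.08 per 30 mg/kg (adjusted p 0.0376). H2ac18 gave 188.5 and 150.0 with vehicle, 221 and 189.9 at 30 mg/kg, 426 and 398 at 60 mg/kg and 539 and 559.9 at 90 mg/kg, and rose by 0.58 ± 0.07 per 30 mg/kg (adjusted p 0.0376). These 2 were the members called for slope, against 0.0266% of all genes higher and 0.00886% lower. With 1 of the 8 arrays left out in turn, 1 slope passed without 30 mg/kg replicate 1 and 0 passed without any of the 7 others.

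Among the 8 tested H4 genes 6 had an unadjusted p under 0.05 in the lung at both doses, with a class median of 1.28 at 60 mg/kg and 1.70 at 90 mg/kg, beside -0.03 and -0.01 for all genes. H4c11 gave 85.0 and 71.0 with vehicle and 289 and 291 at 90 mg/kg, a change of 1.71 ± 0.23 (adjusted p 0.0766). H4c18 gave 10.7 and 14.6, then 90.6 and 86.0, a change of 1.87 ± 0.23 (adjusted p 0.0766). H4c8, H4c9 and H4c6 had 1.78, 1.69 and 1.67 (adjusted p 0.11, 0.082 and 0.159). In the same lungs 7 of 10 H2B genes had an unadjusted p under 0.05, with a class median of 0.94 at 90 mg/kg. H2bc15 gave 229 and 302 with vehicle, 133 and 296 at 30 mg/kg, 625 and 636 at 60 mg/kg and 678 and 493 at 90 mg/kg, with a change of 1.09 ± 0.35 at the top dose (adjusted p 0.287). The 2 arrays at 30 mg/kg disagreed, replicate 1 being the lowest array for H2bc15, H2bc11, H2bc7 and H2bc9.

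**Figure D4:**
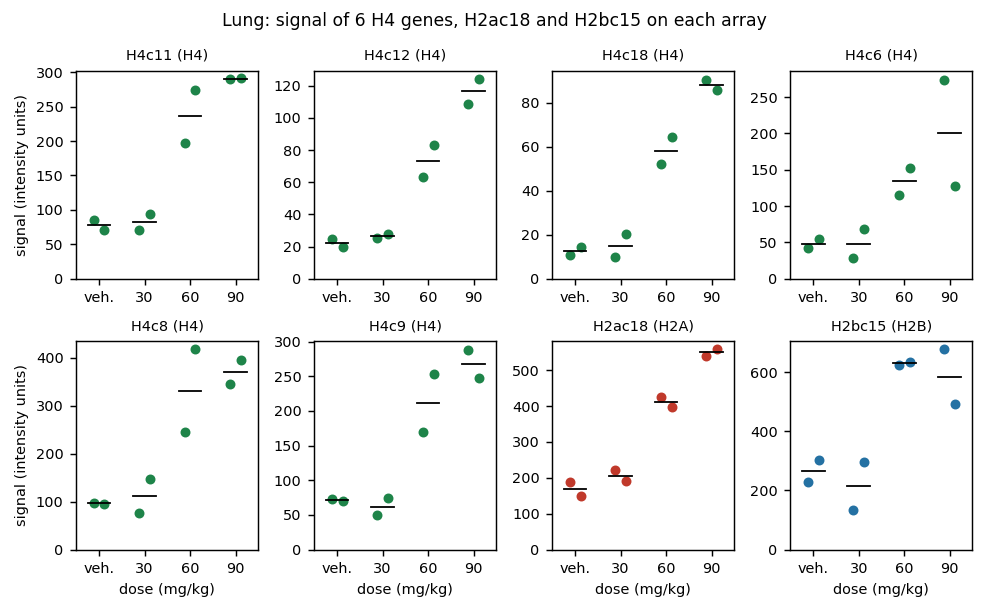
Signal (intensity units, axes from 0) in the lung by dose for 6 H4 genes, H2ac18 and H2bc15; points are arrays and lines are means of 2. In H4c12 the 60 mg/kg arrays sit at 63.1 and 83.3 and the 90 mg/kg arrays at 109 and 124, above vehicle at 24.6 and 19.7.

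Most H2A genes gave no such values in the lung, where 3 of 14 were higher and 0 lower at 90 mg/kg at an unadjusted p under 0.05. H2ac12 gave 337 and 147 with vehicle and 175 and 102 at 90 mg/kg, overlapping, with a change of -0.68 ± 0.45 (adjusted p 0.64). The class median of 14 H2A genes was -0.31 at 90 mg/kg and turned under other settings, from -0.70 to 0.11. H2ac8 had 1.05 ± 0.24 and H2ac21 0.92 ± 0.19 (adjusted p 0.147 and 0.13). H2ac8 was above background in this organ only on its arrays at 60 and 90 mg/kg, through which it entered the test. Its value is therefore no support for a change, and the H2A count of 3 includes it. In the lung 0 of 25 tested S phase genes passed at 60 or 90 mg/kg by limma, with 6 and 5 lower and none higher at an unadjusted p under 0.05, and the sum of the 31 on the array was 2963 to 3516 with vehicle and 2585 to 2586 at 90 mg/kg. The erythroid sum was 4020.3 to 6187 with vehicle and 2037 to 2169 at 90 mg/kg, and the spermatid sum 4968 to 7332 and then 156 to 1086. Macrophage markers had a median log2 change of 0.85 at 60 mg/kg, 3 of 8 being higher at an unadjusted p under 0.05, and 0.08 at 90 mg/kg, and their sum was 1627 to 2205 with vehicle, 1707 to 4422 at 60 mg/kg and 1594 to 1620.2 at 90 mg/kg. B cell markers had a median of -0.76 at 90 mg/kg, with a sum of 318 to 711 with vehicle and 248 to 249 then. The hepatocyte sum was 1851 to 9451 with vehicle, 10257 to 10717 at 30 mg/kg, 6654 to 14828 at 60 mg/kg and 525 to 12175 at 90 mg/kg, with Fgb and Tat not above background. At an unadjusted p under 0.05, 3.19% of all genes in the lung were higher and 5.77% lower at 60 mg/kg, and 4.52% and 7% at 90 mg/kg. The part of these lists in the lung values was not tested.

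In the liver no member passed at any dose or for slope (limma), and of all 11494 genes 0.0087% rose with dose and 0 passed at any single dose. At an unadjusted p under 0.05, 18 of 44 members were higher and 1 lower at 60 mg/kg, against 3.45% and 3.53% of all genes, and 13 were higher and 2 lower at 90 mg/kg, against 5.93% and 5.21%. At 30 mg/kg 0 were higher and 1 lower, against 2.54% and 2.31%, and for slope 14 were higher and 1 lower, against 6.26% and 5.82%. H1f2 gave 1086 and 976 with vehicle, 1083 and 1463 at 30 mg/kg, 2204 and 1501 at 60 mg/kg and 2157 and 2217 at 90 mg/kg. Its arrays at the 2 higher doses were above all others, with a change of 1.08 ± 0.26 at 90 mg/kg (adjusted p 0.222). H2ac8 gave 27.0 and 40.8 with vehicle and 113 and 165 at 90 mg/kg, a change of 1.63 ± 0.34 (adjusted p 0.19). H4c18 had 1.40 ± 0.40, H3c14 0.85 ± 0.21, H3c4 0.80 ± 0.20 and H3c13 0.78 ± 0.21. The second probe of H3c14 gave 0.11 in the liver. The class medians at 90 mg/kg were 0.79 for H3, 0.77 for H4, 0.33 for H2B and 0.17 for H2A, beside -0.01 for all genes.

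In the testis no member passed at any dose or for slope (limma), and over 10732 genes 1 rose at 90 mg/kg, which is 0.00932%, and none passed at 30 or 60 mg/kg. At an unadjusted p under 0.05 0 of 38 members were higher and 0 lower at 30 mg/kg, against 1.91% and 2.56% of all genes. At 60 mg/kg 0 were higher and 1 lower, against 4.32% and 4.79%, and at 90 mg/kg 2 and 1, against 3.81% and 3.75%. For slope 5 were higher and 1 lower, against 5.08% and 4.86%. The spermatid linker histone H1f7 gave 2560 and 2207 with vehicle, 2849 and 2449 at 30 mg/kg, 2169 and 2160.1 at 60 mg/kg and 2512 and 2261 at 90 mg/kg. Its vehicle, 30 and 90 mg/kg groups overlapped, while both 60 mg/kg arrays lay below all of these. H2bc14 and H2bc11 had 0.50 ± 0.19 and 0.49 ± 0.20 at 90 mg/kg (adjusted p 0.648 for each). H2bc18, H4c9, H3c14 and H2bc7 had -0.55, 0.55, 0.34 and 0.45. The vehicle arrays disagreed on the H2A genes: H2ac7 gave 289.9 and 808.5 on them and 613 to 788 on the treated arrays, so the H2A class median of 0.35 at 90 mg/kg, which ranged from -0.10 to 0.84 over other settings, lay within the span of the vehicle arrays, -0.49 and 0.49 around their mean.

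**Figure D5:**
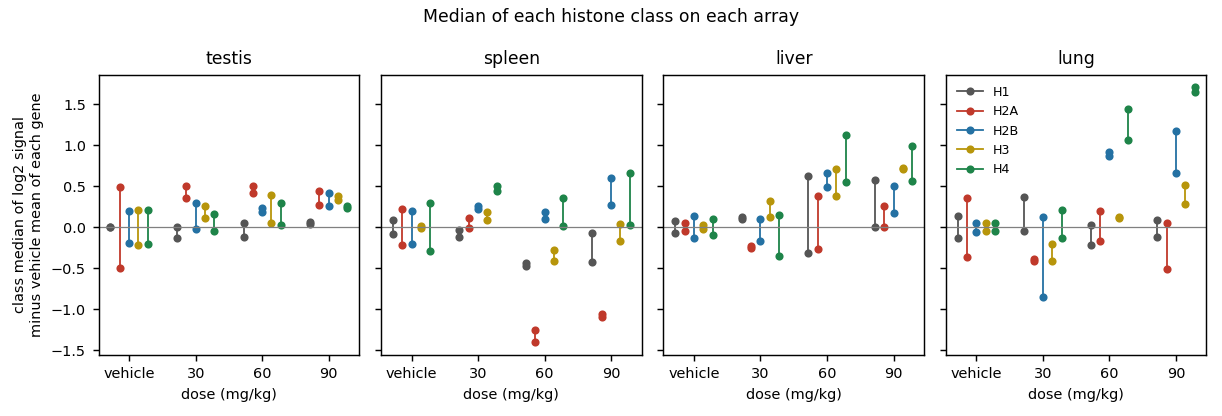
Median over the tested genes of each histone class of the log2 signal minus the gene's vehicle mean, for each array, by organ and dose; joined points are the 2 arrays of a group. H2A lies at -1.10 and -1.06 in the spleen at 90 mg/kg, and H4 at 1.07 and 1.44 in the lung at 60 mg/kg.

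The responses of organs were compared directly. The spleen change at 90 mg/kg minus the mean change of liver and lung passed for 5 of 49 members, all lower, against 2.13% of all 13781 genes, and none was higher, against 1.6%. H2ac21 differed by -2.20 ± 0.44 (limma adjusted p 0.00783), H2ac11 by -2.00 ± 0.44 (adjusted p 0.0137), H1f7 by -1.60 ± 0.44 (adjusted p 0.045), H2ac20 by -1.15 ± 0.28 (adjusted p 0.0255) and H3c3 by -0.72 ± 0.17 (adjusted p 0.0256). H3c3 was above background on 3 spleen arrays and on none of the other organs, so its call follows from the arrays that let it into the test and is no support for a difference. H2ac11 was dim in the organs compared, with vehicle signals of 22.0 and 15.0 in liver and 29.3 and 12.9 in lung. It was above background on 4 of the 8 liver arrays, so a fall there could hardly show. H2ac22, H2ac15 and H2ac12 had -1.37, -1.32 and -1.17 (adjusted p 0.0537, 0.0984 and 0.209). H4c12, which trended upward in the lung, had -1.45 ± 0.45 (adjusted p 0.0783). The class medians of this difference were -0.99 for H2A, -0.75 for H4, -0.69 for H3 and -0.15 for H2B, beside 0.04 for all genes. The count was 1 without spleen vehicle replicate 1, 2 without spleen 90 mg/kg replicate 2 and 3 without its replicate 1 or lung vehicle replicate 2. H1f7 lost its call after the testis share was subtracted, with -0.65. The testis change minus that of the other 3 organs passed for 0 of 49 members by limma, with 8 higher and 6 lower at an unadjusted p under 0.05, against 4.99% and 4.67% of all genes.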

How the data were processed

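Testis, spleen, liver and lung RNA was labelled as cRNA and hybridised to Illumina BeadChips, per the labels' protocols. The submitters' processing notes name GenomeStudio for the deposited intensity values, without a version. Background subtraction and quantile normalization over all 32 arrays were read from the values. A second deposited table of intensity served as a scale check in 3 columns, and 61 per-sample columns of it were not used. Of 25697 probes 23978 had 1 symbol, 0 several and 1719 none; 23962 were matched by ID to RefSeq. Values below 0 were set to 0, and log2(intensity + 16) was used. An array's background threshold was the upper 5% point of a normal curve around 0 whose SD came from the values below 0. Genes above background on 2 of the 8 arrays of an organ were tested with limma 3.58.1 in R 4.3.3, by dose group or slope, with Benjamini-Hochberg adjustment over all genes tested at 0.05. Vehicle organs and organ responses were compared in fits over 8 and 32 arrays. Genes named were members called at 90 mg/kg, for slope or for an organ difference, the 6 smallest p in organs without one, linker histones, members bright in testis, pair partners and up to 3 per list. Of 132 genes in 10 lists, 118 were on the array. The members and lists were chosen with earlier results of these data known. On simulated spleen data of 11023 genes, 35% of genes changed by log2 1 and 85% of those changed by log2 2 were recovered. The same shares were 19% and 58% for liver, 31% and 83% for lung and 57% and 94% for testis. The main fits did not pair arrays by replicate number. Same-numbered deviations correlated above 0.1 in 1 of 6 pairs of dose groups in each organ, at most 0.405, in the spleen. Whether replicate numbers pair arrays across organs was not checked.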

Additional observations from a re-analysis of the deposited data

Results flagged for a closer look

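Differences between the spleen response at 90 mg/kg and the mean response of liver and lung passed the adjusted test (limma over 32 arrays) for 5 histone genes. H2ac21 differed by -2.20 on the log2 scale, H2ac11 by -2.00, H1f7 by -1.60, H2ac20 by -1.15 and H3c3 by -0.72. Among the 5, H2ac21 and H2ac20 were not called within the spleen (adjusted p 0.0904 and 0.0639 at 90 mg/kg), and H2ac21 had values of 0.29 in the liver and 0.92 in the lung. H3c3 was above background on both vehicle spleen arrays and on no spleen array at 60 or 90 mg/kg, and it gave -0.4 and -4.3 on the 90 mg/kg arrays. It was above background in no other organ, so its value is a difference from background and no support for a changed response. H2ac11 was above background on 4 of the 8 liver arrays, which limits its value. H1f7 is the brightest linker histone of the testis, and the testis share of the spleen arrays was 2.74% and 5.63% with vehicle and 1.17% and 0.206% at 90 mg/kg.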

How the results depend on the processing

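Of 747 values under other settings, covering 47 results for called genes and those of smallest p, 0 changed sign and 210 lost the threshold; other named genes were not followed. The 6 results of smallest p in each of liver, lung and testis were not called at first and could not lose the threshold. All 210 losses therefore fell among the called results, where the share lost was higher than over the 747 values. Class medians at 90 mg/kg turned sign for H1, H3 and H4 in the spleen, H1 and H2A in the lung and H1 and H2A in the testis. With genes below background kept in the test, 0 members passed in the spleen at 30, 60 and 90 mg/kg, 2 for the spleen slope and 0 for the lung slope. A single fit over all 32 arrays gave 10 in the spleen at 60 mg/kg, 15 at 90 mg/kg and 16 for slope, in liver 2 at 60 mg/kg, 5 at 90 mg/kg and 9 for slope, and in lung 2, 11 and 15. An offset of 50 gave 11 in the spleen at 90 mg/kg and 5 for the liver slope, and cyclic loess gave 5 for the spleen slope and 0 for the lung slope. Subtracting the testis share gave 0 in the spleen at 30 mg/kg. With the 30 mg/kg arrays in place of vehicle, chosen after seeing the data, the count was 4 at 60 mg/kg and 0 at 90 mg/kg. The main fits did not pair arrays by replicate number (same-numbered deviations of dose groups correlated at -0.234 to 0.405 in the spleen). With the replicate number as a block the counts were 0 at 30 mg/kg, 5 at 60 mg/kg, 1 at 90 mg/kg and 1 for slope in the spleen, and 0 for the lung slope. Leaving out each array in turn gave 0 to 1 in the spleen at 30 mg/kg, 0 to 8 at 60 mg/kg, 0 to 8 at 90 mg/kg, 0 to 6 for slope, 0 to 1 for the lung slope and 1 to 6 for the spleen response difference. A group then holds 1 array, which is assumed to vary like the other groups. The cause of these shifts was not tested. Dim genes such as H3c3 and H2bc8 lie near background, which limits their values.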
